A study of Mus musculus with 4 samples.

Results

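The genes described here are the parathyroid hormone receptor gene Pth1r, the gene of one of its ligands, Pthlh, and 3 genes of secreted signal antagonists, Dkk1, Cer1 and Sfrp1, in mouse embryonic stem (ES) and extraembryonic endoderm (XEN) cells. Members were all probe sets annotated to exactly 1 of these 5 symbols. This gave 4 probe sets of the 12488 on the array, for 4 of the 8251 genes with such a probe set, 1 each for Pth1r, Dkk1, Cer1 and Sfrp1. No probe set was annotated to Pthlh, so its level was not analysed here.

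Pth1r is a G protein-coupled receptor for parathyroid hormone (PTH) and for parathyroid hormone-related peptide (PTHrP, the product of Pthlh). It acts through the stimulatory G protein, adenylyl cyclase and cyclic AMP (cAMP), and also through phospholipase C. In the early embryo PTHrP is known to promote the formation of parietal endoderm, the layer that lays down Reichert's membrane. Wnt ligands bind Frizzled receptors with the co-receptors Lrp5 and Lrp6 and stabilise beta-catenin. Dkk1 blocks the co-receptors, Sfrp1 binds Wnt ligands through a Frizzled-like domain, and Cer1 binds Nodal and BMP ligands. Dkk1 and Cer1 are known products of the anterior visceral endoderm of the embryo.

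The arrays measured total RNA of 4 cultures, 1 array each, on the Affymetrix MG_U74Av2 chip. The ES group was 1 culture of the R1 line, kept undifferentiated on gelatin with LIF. For XEN there were 3 cultures from 2 lines. The IM8A1 line, of the PO strain, gave a pair of them at passage 27: IM8A1-I grew on gelatin in medium labelled 70% EMFI-CM, while IM8A1-II spent 4 days on plain tissue culture plastic in RPMI 1640 and 20% FBS. XEN1-3 (ICR strain) was at passage 18 on gelatin in 70% EMFI-CM. XEN cells are lines of the primitive endoderm lineage, and each line stands for 1 derivation. Signal is in arbitrary units of the deposited linear scale. The background limit used here, the 40th percentile of all values, was 27.2 units, and it is not a detection call. Values of the XEN cultures are listed throughout in the order IM8A1-I, IM8A1-II, XEN1-3 and follow the ES value.

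The ES array was of another chip lot than the 3 XEN arrays, so effects of lot and of cell type cannot be told apart. The run record of XEN1-3 carries a message that fluid was not detected. Array medians lay between 46.7 and 52.2 units, and the 3' to 5' signal ratio of the actin control lay between 1.21 and 1.25. The ES cell and endoderm markers followed the cell type of the labels. They were chosen with earlier results of these data known, so they are no independent check. The 8 ES cell markers summed to 20272 units in R1 ES and 201 to 232 in the XEN cultures, and all 8 were lower in XEN. The 7 extraembryonic endoderm markers summed to 151 units in ES and 9366 to 10735 in XEN, and all 7 were higher. All 11 parietal endoderm markers were also higher, with sums of 1790 units in ES and 47313, 37721 and 32718 in the XEN cultures. Of the 11 visceral endoderm markers on the array, 2 of 8 tested were higher, and the sums were 244 units in ES and 2295, 5178 and 1906 in the same order. Among them Apoa1, Apoa4 and Apob did not reach the limit on any array. Of other cell types, the 12 fibroblast markers summed to 1220 units in ES and 713 to 879 in XEN, the 7 trophoblast markers to 931 and 98.0 to 123, and the 7 germ layer markers to 285 and 193 to 435. In the ES sums, Tfap2c alone gave 767 of the trophoblast units and Tagln alone gave 538 of the fibroblast units.

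Pth1r was near background in ES cells and bright in every XEN culture. Its signal was 23.1 units in R1 ES, under the background limit, and 2128, 1384 and 2276 units in the XEN cultures. All 3 XEN values lay far above the ES value, and the groups did not overlap. IM8A1-II was the lowest of the XEN cultures. The XEN mean was 1929 ± 478 units (SD, n = 3), and the geometric mean of XEN was at least 69.3-fold the ES value when that value is set to the background limit. Other bounds written as at least N-fold were taken in this way. With the limit at the 50th percentile (49.5 units) the bound for Pth1r was 38.1-fold, and with the 30th (14.6 units) its ES value was above the limit. On the log2(value + 10.5 units) scale the difference was 5.82 ± 0.36 (SE; 95% confidence interval 4.92 to 6.71), with a limma p of 0.00217 after Benjamini-Hochberg adjustment over all tested probe sets. The threshold was 0.05. The difference was the 8th largest rise among the 8587 probe sets tested. By the same test 5.58% of probe sets rose in XEN and 5.04% fell, and every XEN array lay above ES for 38.9%. Counts of calls in the gene lists below are to be read against these shares.

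The rise of Pth1r was larger than the spread between XEN cultures and passed the threshold under all 11 alternatives. These p-values measure the spread between 3 cultures of 2 lines, and one ES culture alone has to be taken to vary as they do. In such bulk samples a larger share of cells that express a gene and more RNA per cell cannot be told apart. Without XEN1-3, the array with the fluidics message, the log2 difference of Pth1r was 5.68 (limma adjusted p = 0.000669). The XEN cultures left in that fit, and in every other fit without XEN1-3, are of the IM8A1 line alone. Such a fit holds no spread between lines. The plot of signal by array shows the members on all 4 arrays.

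**Figure D1:**
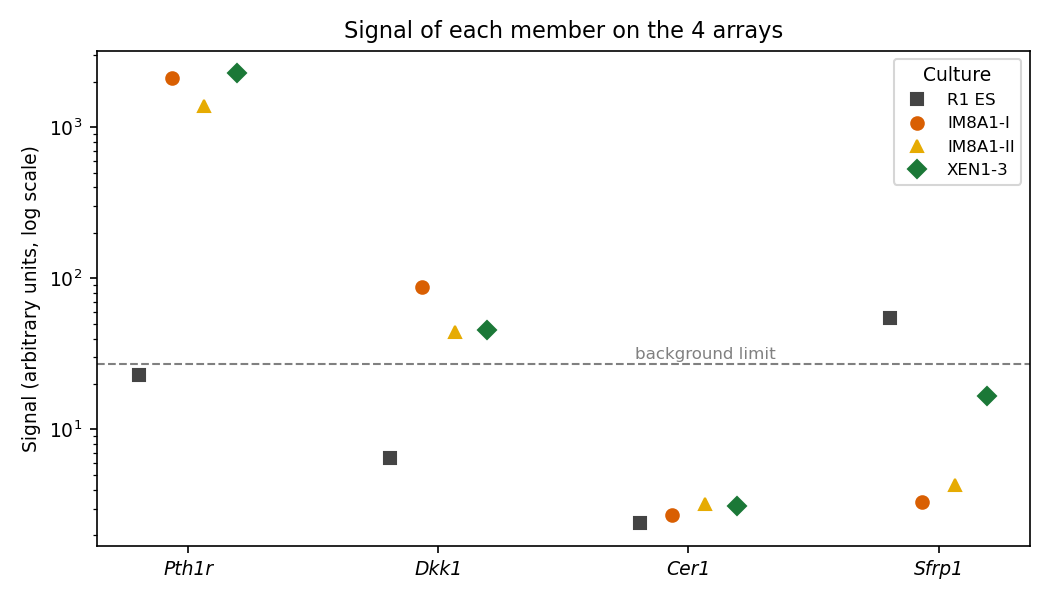
Signal of Pth1r, Dkk1, Cer1 and Sfrp1 (arbitrary units, log scale) on each of the 4 arrays, 1 symbol per culture, with the background limit of 27.2 units as a dashed line. Pth1r lies between 1384 and 2276 units in the XEN cultures against 23.1 in R1 ES, Dkk1 lies above the limit in all 3 XEN cultures, Sfrp1 is above it in R1 ES alone, and Cer1 is under it on every array.

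The RefSeq table gives 3 start sites for Pth1r on the minus strand of chromosome 9 and 1 for Dkk1 on the minus strand of chromosome 19. The array does not say which Pth1r start was used. The 250 bases before each start are shown because these are the members that rose in XEN. Starts of Pth1r are numbered from the most upstream, and the windows are chr9:110747146-110747395, chr9:110743687-110743936 and chr9:110742611-110742860 (GRCm38.p6). The Dkk1 window is chr19:30549497-30549746. Each is printed 5′ to 3′ on the gene's strand, and capitals mark matches to the words searched.
Pth1r start 1: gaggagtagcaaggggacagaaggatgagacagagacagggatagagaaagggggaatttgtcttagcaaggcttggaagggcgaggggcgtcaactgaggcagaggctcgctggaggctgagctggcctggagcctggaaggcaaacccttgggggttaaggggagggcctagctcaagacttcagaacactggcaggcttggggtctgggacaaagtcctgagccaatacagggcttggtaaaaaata
Pth1r start 2: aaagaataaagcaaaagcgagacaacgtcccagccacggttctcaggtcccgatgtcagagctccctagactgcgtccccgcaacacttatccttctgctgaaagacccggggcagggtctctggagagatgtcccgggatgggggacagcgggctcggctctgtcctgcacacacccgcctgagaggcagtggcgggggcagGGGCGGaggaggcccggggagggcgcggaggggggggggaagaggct
Pth1r start 3: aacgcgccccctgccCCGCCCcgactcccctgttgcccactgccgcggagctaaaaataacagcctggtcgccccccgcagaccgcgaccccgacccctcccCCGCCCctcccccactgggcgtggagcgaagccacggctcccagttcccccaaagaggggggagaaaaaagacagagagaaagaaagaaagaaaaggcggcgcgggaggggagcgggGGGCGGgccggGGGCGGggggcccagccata
Dkk1: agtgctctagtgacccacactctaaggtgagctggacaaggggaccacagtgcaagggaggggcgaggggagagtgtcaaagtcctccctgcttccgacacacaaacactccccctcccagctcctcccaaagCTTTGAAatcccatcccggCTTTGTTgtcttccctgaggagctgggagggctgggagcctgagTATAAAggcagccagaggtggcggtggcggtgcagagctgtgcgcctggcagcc

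The words searched on both strands were the words AGATAA or AGATAG and the words TGATAA or TGATAG for GATA factors, CTTTGAA and CTTTGAT for TCF/LEF factors, the words AACAAAG or AACAATG and the words ACAAAGA or ACAATGG for SOX factors, TATAAA for a TATA box and GGGCGG for a GC box. Some SOX words overlap each other, and read on the other strand some share CTTTG with the TCF/LEF words. In the Dkk1 window the TCF/LEF word CTTTGAA lay at positions -117 to -111 from the start, the SOX word AACAAAG lay on the other strand at -98 to -92, and TATAAA lay at -54 to -49. Among 32851 windows of the same length in the table, 7.48% held a TCF/LEF word, 13.2% a SOX word and 12.4% a TATA word. The Pth1r windows held the GC box alone, with none before start 1, 1 match before start 2 and 4 before start 3, against 32.7% of windows with at least 1. A GATA word, present in 26.5% of windows, was not found in these 4. The GC content was 56.0%, 65.6% and 70.4% before Pth1r starts 1, 2 and 3 and 60.8% before Dkk1, with a median of 52.4% over all windows. These matches describe the letters and are not binding sites.

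Among the other genes of PTH and PTHrP reception, 2 fell and none rose by limma's test. In the list of ligands, receptors and processing enzymes 13 genes were on the array and 9 were tested, of which 1 rose (Pth1r), 2 fell and 6 did not pass. The median log2 difference was 0.28, against 0.05 over all 8587 tested probe sets. The PTH gene itself was at 4.80, 4.90, 3.30 and 1.40 units in R1 ES, IM8A1-I, IM8A1-II and XEN1-3, under the limit on all arrays.

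Ramp2 and Ramp3 encode accessory proteins that associate with receptors of this class. Ramp3 fell from 68.7 units in ES to 6.20, 9.30 and 6.90 in the XEN cultures, at least 2.53-fold (limma adjusted p = 0.0271). All 3 XEN values of Ramp3 were under the limit. Ramp2 stood at 27.2 units in ES, at the limit, and 675, 312 and 92.2 in the same cultures, a log2 difference of 2.91 ± 0.97 (SE) that did not pass (limma adjusted p = 0.114). Its XEN values spread widely and were all above ES, as for 38.9% of all tested probe sets. The related receptor genes Calcr and Calcrl did not reach the limit on any array.

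Among the proprotein convertases, which cleave hormone precursors, Pcsk6 fell from 142 units in ES to 36.3, 30.5 and 45.9 in the XEN cultures (limma adjusted p = 0.0321). Furin stood at 199 units in ES and 327, 455 and 450 in XEN and did not pass (limma adjusted p = 0.0996), and Pcsk7 had a log2 difference of -0.04 (0.976). The calls of Ramp3 and Pcsk6 were lost without IM8A1-I (limma adjusted p of 0.0731 and 0.0844) and without IM8A1-II (0.0601 and 0.0750). Pcsk6 passed under 6 of the 11 alternatives and was also lost with each XEN line counted once (0.0534).

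Downstream of the receptor, 31 of 36 genes on the array were tested. Of these 1 rose, 0 fell and 30 did not pass (median log2 difference 0.41). Over all tested probe sets 5.58% rose and 5.04% fell, so these counts are no result about the group. The one that rose was Adcy6, an adenylyl cyclase, from 47.1 units in ES to 228, 262 and 262 in the XEN cultures. The XEN values were tightly grouped, and the log2 difference was 2.18 ± 0.27 (SE, limma adjusted p = 0.0109), past the threshold under all 11 alternatives. Gnas, whose main product is the stimulatory G protein alpha subunit, stood at 2458 units in ES and 4153, 4714 and 5399 in the XEN cultures (log2 difference 0.94, limma adjusted p = 0.0771). The protein kinase A subunits Prkaca and Prkar1a had log2 differences of 0.79 and 0.65 (limma adjusted p of 0.127 and 0.160). Slc9a3r1, a scaffold protein that binds the receptor's tail, stood at 307 units in ES and 777, 1752 and 295 in the XEN cultures, so the XEN cultures lay on both sides of ES. Gnb1, a G protein beta subunit gene, had a log2 difference of -0.57 (limma adjusted p = 0.229).

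Genes that cAMP is known to induce showed no call. Of 11 on the array 9 were tested, and 0 passed limma's test in either direction (median log2 difference 0.13). For 1, Dusp1, limma's unadjusted p was under 0.05, and the share of all probe sets under that cut was not taken. As 10.6% of all tested probe sets were called in either direction, 0 of 9 is no result about the group. Fos stood at 37.6 units in ES and 120, 82.3 and 57.0 in the XEN cultures (limma adjusted p = 0.196). Nr4a1, a nuclear receptor gene, stood at 123 and 199, 190 and 136 units (limma adjusted p = 0.390). Both were above ES in every XEN culture, as were 38.9% of all tested probe sets. Dusp1, a phosphatase gene, lay below ES in every XEN culture, as 34% of all tested probe sets did. It stood at 843 units in ES and 360, 178 and 54.0 in the same order (limma adjusted p = 0.149). Cebpb, a transcription factor gene, stood at 65.1 units in ES and 224, 58.0 and 17.4 in XEN, on both sides of ES (limma adjusted p = 0.994).

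Dkk1 rose from a value under the limit to a dim signal. It measured 6.5 units in R1 ES and 87.9, 44.4 and 45.2 units in the XEN cultures. All 3 XEN values were above the limit of 27.2 units and the ES value was not. With the 50th percentile limit of 49.5 units IM8A1-I alone stayed above it. IM8A1-I was the highest, and the other XEN cultures were nearly equal. The XEN mean was 59.2 ± 24.9 units (SD, n = 3), and XEN was at least 2.06-fold higher than ES. That bound was 1.13-fold with the 50th percentile limit and 3.84-fold with the 30th. The log2 difference was 1.98 ± 0.45 (SE; 95% confidence interval 0.88 to 3.08), with a limma adjusted p of 0.0478.

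The call of Dkk1 lay close to the threshold. It passed under 3 of the 11 alternatives, among them the fit without XEN1-3, in which XEN is the IM8A1 line alone. It was lost without IM8A1-I (limma adjusted p = 0.0895) or IM8A1-II (0.0781) and when dim values were set to the limit (0.322), but kept without XEN1-3 (0.0276). The call was also lost without the filter on dim probe sets, which Dkk1 passed through its XEN values alone.

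Sfrp1 had the opposite order. It measured 54.3 units in R1 ES and 3.30, 4.30 and 16.6 units in the XEN cultures. All 3 XEN values were under the limit and below ES, as for 34% of all tested probe sets in which every XEN array lay below ES. The XEN mean was 8.07 ± 7.41 units (SD, n = 3), and ES was at least 2.0-fold higher, or 1.10-fold with the 50th percentile limit. The log2 difference of -1.87 ± 0.53 (SE; 95% confidence interval -3.18 to -0.57) did not pass (limma adjusted p = 0.0793). It passed without XEN1-3 (limma adjusted p = 0.0269), with the larger, 50th percentile offset (0.0471) and when dim values were set to the limit (0.00253), where all 3 XEN values are equal by construction. The plot of adjusted p by setting shows Dkk1 and Sfrp1 on both sides of the threshold and Pth1r below it throughout.

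**Figure D2:**
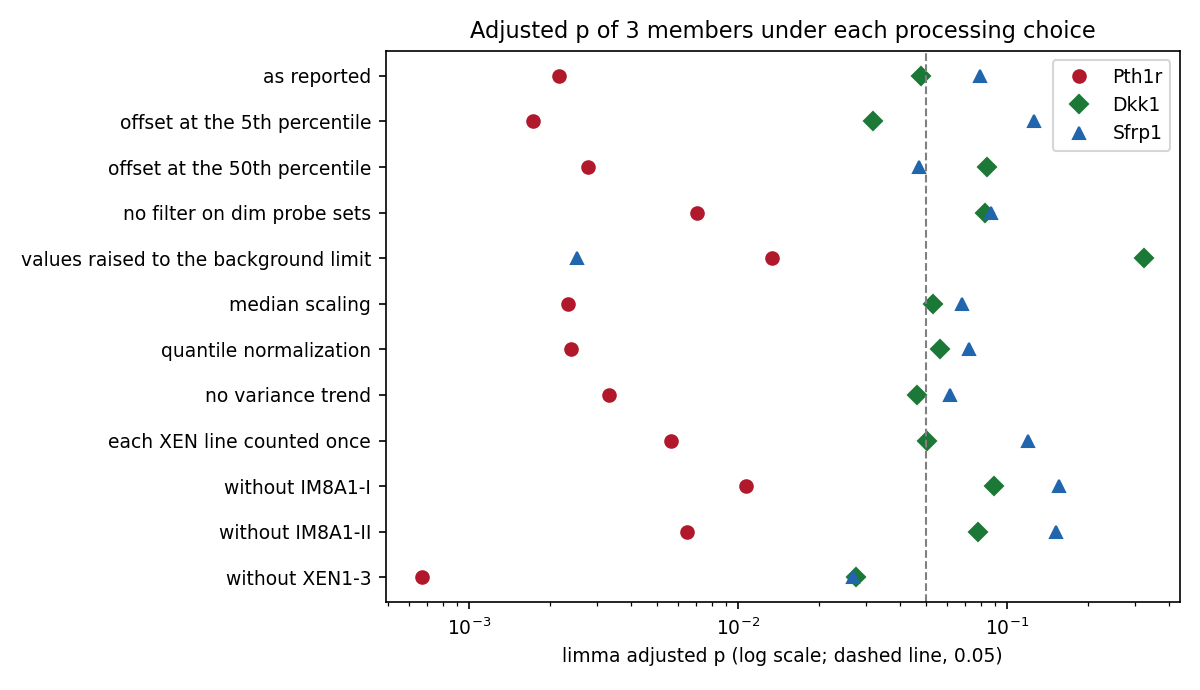
Limma adjusted p (log scale) of Pth1r, Dkk1 and Sfrp1 for XEN against R1 ES as reported and under 11 alternatives, with the threshold of 0.05 as a dashed line. Pth1r lies below the threshold in each, while Dkk1 and Sfrp1 each lie below it under 3 of the 11.

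Cer1 was under the limit on every array. It measured 2.40 units in R1 ES and 2.70, 3.20 and 3.10 units in the XEN cultures. These values lay within 1 unit of each other and far under the limit of 27.2, so no order can be read from them and the gene was not tested. The probe set gives no level for Cer1 in either cell type, and the data cannot show whether it was absent. Of the 250 bases before its RefSeq start, none matched the words searched.

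The wider list of secreted Wnt antagonists, in which Cer1 was counted, had 9 genes on the array, of which 7 were tested. Of these 2 rose (Dkk1 and Frzb), 0 fell and 5 did not pass, with a median log2 difference of 0.17. Frzb, a Wnt-binding relative of the Sfrp genes, stood at 3.70 units in ES and 180, 144 and 940 in the XEN cultures, at least 10.7-fold higher. XEN1-3 was far above the IM8A1 cultures. The log2 difference of Frzb was 4.42 ± 1.01 (SE, limma adjusted p = 0.0493), and it passed under 3 of 11 alternatives. It was lost without IM8A1-I (limma adjusted p = 0.0791) or IM8A1-II (0.0568) and with each XEN line counted once (0.0524), and kept without XEN1-3 (0.00187). Frzb too was lost without the filter, which it passed through its XEN values alone.

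The other Sfrp genes on the array lay below ES as Sfrp1 did. Sfrp2 stood at 109 units in ES and 31.8, 43.1 and 36.3 in the XEN cultures (log2 difference -1.33, limma adjusted p = 0.0509). Sfrp4 stood at 63.9 and 21.0, 15.0 and 24.4 units (log2 difference -1.29, limma adjusted p = 0.0777). None of the 3 passed the test. Every XEN value was below ES, as for 34% of all tested probe sets. Sfrp2 passed under 5 of 11 alternatives. Dkk3, a relative of Dkk1, stood at 31.7 and 38.4, 73.0 and 43.3 units without passing (limma adjusted p = 0.438), and Dkk2 was under the limit on all arrays. Igfbp4, which also binds Wnt co-receptors, had a log2 difference of 0.17 (limma adjusted p = 0.837). The plot of log2 differences sets these genes beside those of PTH and PTHrP reception.

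**Figure D3:**
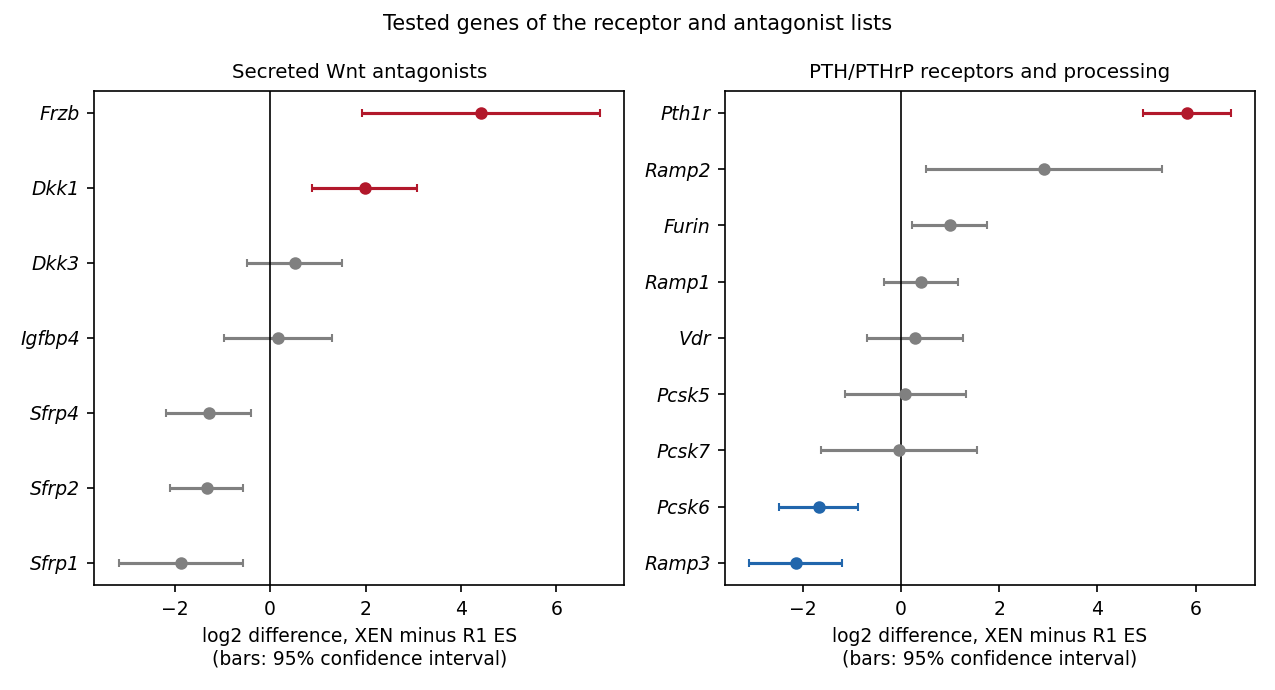
Log2 difference, XEN minus R1 ES, of each tested gene in the list of secreted Wnt antagonists (left) and in the list of PTH and PTHrP ligands, receptors and processing enzymes (right), with 95% confidence intervals from limma. Red points rose and blue points fell at an adjusted p under 0.05, grey points did not pass. Pth1r lies at 5.82, Dkk1 at 1.98 and Sfrp1 at -1.87.

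Of the Wnt ligands 14 were on the array, 9 were tested, 1 rose, 0 fell and 8 did not pass. Since 10.6% of all tested probe sets were called in either direction, 1 of 9 is no result about the group. Wnt11, a ligand known mainly for signalling without beta-catenin, stood at 1.30 units in ES and 103, 65.2 and 153 in the XEN cultures. All 3 XEN values were above the limit, at least 3.71-fold higher than ES (log2 difference 3.25 ± 0.47, SE; limma adjusted p = 0.0159). The call was lost with values raised to the limit (limma adjusted p = 0.177). The median log2 difference of the tested ligands was 0.19. Wnt1 stood at 47.8 units in ES and 87.0, 87.2 and 73.8 in the XEN cultures, and did not pass (limma adjusted p = 0.181). Wnt4 measured 24.4 units in ES and 5.60, 70.4 and 5.50 in the XEN cultures, so it was above the limit in IM8A1-II alone. Wnt7b had a log2 difference of 0.07 (limma adjusted p = 0.924).

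No Wnt receptor or co-receptor passed the test. Of 14 on the array 12 were tested, with a median log2 difference of 0.14. With 10.6% of all tested probe sets called in either direction, 0 of 12 is no result about the group. By limma 4 of the 12 (Fzd4, Fzd7, Lrp6 and Ror2) had an unadjusted p under 0.05. The 10.6% is at adjusted p, and no share of all probe sets was taken at unadjusted p. The 4 are thus no result about the group either. Lrp6, the co-receptor that Dkk1 binds, stood at 202 units in ES and 326, 347 and 389 in the XEN cultures (log2 difference 0.77, limma adjusted p = 0.124). Fzd4 stood at 115 and 214, 235 and 244 units (log2 difference 0.95, limma adjusted p = 0.0780). Both were above ES in every XEN culture, as were 38.9% of all tested probe sets. Ryk, a kinase-like Wnt receptor, had a log2 difference of 0.28 (limma adjusted p = 0.614). Lrp5 was dim, at 37.8 units in ES and 7.0, 37.6 and 29.4 in the XEN cultures.

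In the cytoplasmic and nuclear part of the Wnt pathway 28 genes were on the array and 26 were tested. Of these 1 rose, 2 fell and 23 did not pass (median log2 difference -0.30). These counts are near the shares of all tested probe sets, 5.58% higher and 5.04% lower, and are no result about the group. Tcf7l2, a transcription factor that beta-catenin binds, rose from 105 units in ES to 352, 335 and 344 in the XEN cultures (log2 difference 1.62 ± 0.26, SE; limma adjusted p = 0.0206). A second probe set of Tcf7l2, with a log2 difference of 1.01, did not pass (limma adjusted p = 0.116). Tle4, a co-repressor of these factors, fell from 171 to 27.7, 46.6 and 35.3 units (limma adjusted p = 0.0252). Frat2, an inhibitor of the kinase Gsk3, fell from 144 to 44.2, 48.2 and 31.6 units (limma adjusted p = 0.0381), while its other probe set did not pass (0.398). Fbxw11, counted among those that did not pass, has another probe set that rose (log2 difference 1.27, limma adjusted p = 0.0437). Beta-catenin itself (Ctnnb1) stood at 1812 units in ES and 1208, 1355 and 1188 in XEN without passing (limma adjusted p = 0.221). The kinases Csnk1a1 and Gsk3a, which phosphorylate it or its partners, had log2 differences of -1.05 and -0.32 (limma adjusted p of 0.0524 and 0.492). All 3 calls were lost without IM8A1-I (limma adjusted p of 0.0682 for Tcf7l2, 0.0629 for Tle4 and 0.0885 for Frat2), and those of Tcf7l2 and Frat2 also without IM8A1-II (0.0603 and 0.0719). Tle4 passed under 8 of the 11 alternatives and Frat2 under 6.

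Of 16 genes known as Wnt targets on the array 11 were tested, of which 1 rose, 1 fell and 9 did not pass (median log2 difference 0.51). A single call each way in 11 genes is near the shares of all tested probe sets, 5.58% higher and 5.04% lower, and is no result about the group. The genes called were both cyclins. Ccnd2 stood at 8.40 units in ES and 351, 248 and 156 in the XEN cultures, at least 8.77-fold higher (limma adjusted p = 0.0109). Ccnd1 fell from 279 to 28.5, 22.9 and 46.5 units (log2 difference -2.78, limma adjusted p = 0.0144), and its other probe set, with a log2 difference of -1.51, did not pass (0.151). Axin2, a general target of beta-catenin signalling, was dim and nearly level, at 31.1 units in ES and 36.5, 33.3 and 39.3 in XEN (log2 difference 0.17, limma adjusted p = 0.756). Id2, a dominant-negative helix-loop-helix gene, stood at 245 units in ES and 842, 1590 and 711 in XEN, and did not pass (limma adjusted p = 0.0581). Mycn, a proto-oncogene of the Myc family, and Lef1, a partner of beta-catenin, had log2 differences of -0.62 and -0.51 (limma adjusted p of 0.177 and 0.329). The calls of both cyclins were lost with values raised to the limit (limma adjusted p of 0.0847 for Ccnd2 and 0.0562 for Ccnd1).

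No tested Nodal or BMP ligand passed as higher, while their antagonists changed in both directions. Of 17 Nodal and BMP genes on the array 12 were tested, of which 2 rose, 5 fell and 5 did not pass (median log2 difference -0.30). Nodal stood at 245 units in ES and 20.8, 13.3 and 14.7 in the XEN cultures, at least 9.0-fold lower (limma adjusted p = 0.00733). Lefty1, an antagonist of Nodal, fell from 524 to 48.9, 55.9 and 51.9 units (limma adjusted p = 0.00503). Gdf3, Tdgf1 and Bmp4 also fell, and so did a second probe set of Bmp4 (log2 difference -3.30, limma adjusted p = 0.0145). The call of the Bmp4 probe set that stands for the gene passed under 6 of the 11 alternatives. It was lost without IM8A1-I (limma adjusted p = 0.0819) or IM8A1-II (0.0781), without the filter (0.0546), when dim values were set to the limit (0.0721) and with each XEN line once (0.0546). Of the antagonists, Nog (noggin, which binds BMP ligands) went from 15.6 units in ES to 351, 121 and 263 in the XEN cultures, at least 8.21-fold higher (limma adjusted p = 0.0282). Nog passed under 7 of the 11 alternatives and was lost without IM8A1-I (limma adjusted p = 0.0542), with the 50th percentile offset (0.0506), without the filter (0.0513) and when dim values were set to the limit (0.131). Fst (follistatin, which binds activin) went from 27.0 to 3475, 2990 and 1869 units, at least 98.8-fold higher (limma adjusted p = 0.00221). The BMP ligand gene Bmp2, the follistatin relative Fstl1 and the BMP-binding Twsg1 did not pass, with log2 differences of 1.81, 0.62 and -0.24 (limma adjusted p of 0.0798, 0.305 and 0.770).

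Of the genes that mark the anterior visceral endoderm in the embryo, some rose and Cer1 was not detected above background. Of 9 on the array 6 were tested, of which 2 rose (Foxa2 and Dkk1), 1 fell (Lefty1) and 3 did not pass (median log2 difference 0.88). Foxa2, an endoderm transcription factor gene, went from 7.70 units in ES to 512, 520 and 552 in the XEN cultures (limma adjusted p = 0.00175). Hhex stood at 58.5 units in ES and 51.2, 71.1 and 75.3 in the XEN cultures, and Lhx1 at 38.5 and 32.5, 28.5 and 30.3 units, neither past the test (limma adjusted p of 0.822 and 0.622). Amot stood at 153 units in ES and 316, 1093 and 352 in XEN and did not pass (limma adjusted p = 0.191). Cer1, Gsc and Hesx1 were under the limit on all arrays.

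Within the XEN cultures each comparison rests on 1 array a side and has no test. The array run records describe IM8A1-I with the word GEL and IM8A1-II with the word DIFF. The sources used here do not explain DIFF, so whether IM8A1-II was meant as a differentiated culture is not known. Without IM8A1-II the log2 difference of Pth1r from ES was 6.04 (limma adjusted p = 0.00648). Between IM8A1-II and IM8A1-I, the same line in different media and on different surfaces, Pth1r was lower in IM8A1-II by 0.62 in log2 (0.650 of the IM8A1-I signal) and Dkk1 by 0.84 (0.505 of it). In that pair 2.48% of tested probe sets were at least 2-fold lower on the same log2 scale and 3.51% higher, and no member passed that line. In IM8A1-II the visceral endoderm markers summed higher and the parietal ones lower than in IM8A1-I, as given above, and their part in these differences was not tested. Most of the visceral difference, 2500 of 2883 units, was 1 gene, Rbp4, a retinol carrier gene named after its values were seen, at 171, 2671 and 130 units in the XEN cultures. Without Rbp4 the sums were 2124, 2507 and 1776 units. Lrp2 and Bmp2 were lower in IM8A1-II than in IM8A1-I, at 267 against 418 and 44.0 against 62.9 units. Cubn, Ttr and Ihh were higher in IM8A1-II, at 1751 against 1485, 161 against 45.3 and 156 against 62.9 units. Afp and Hnf4a reached the limit in IM8A1-II alone, at 50.7 and 37.2 units.

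Between XEN1-3 and IM8A1-I, different lines in the same medium, Pth1r differed by 0.10 in log2 (1.07-fold) and Dkk1 was lower in XEN1-3 by 0.82 (0.514 of the IM8A1-I signal). In that pair 4.58% of probe sets were at least 2-fold higher in XEN1-3 and 4.54% lower, with no member among them. Between XEN1-3 and IM8A1-II, Dkk1 differed by 0.02 and Pth1r was higher in XEN1-3 by 0.71 (1.64-fold), and here 4.06% of probe sets were at least 2-fold higher and 5.46% lower, again with no member. Pth1r thus ranked XEN1-3, IM8A1-I, IM8A1-II, R1 ES, and Dkk1 ranked IM8A1-I, XEN1-3, IM8A1-II, R1 ES. XEN1-3 and IM8A1-I lay within 1.07-fold for Pth1r, and XEN1-3 and IM8A1-II within 1.02-fold for Dkk1, which single arrays do not separate. Sfrp1 and Cer1 were under the limit in all XEN cultures, so they have no order there.

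The probe sets whose pattern lay nearest to that of Pth1r were found by the root mean square difference of their log2 profiles over the 4 arrays, each centred on its own mean. They were Tinagl1, a matrix glycoprotein gene (difference 0.15), Srgn, a proteoglycan gene (0.16), the endoderm transcription factor Gata6 (0.24), the growth factor receptor Pdgfra (0.27) and F3, the gene of tissue factor (0.32). Gata6 measured 13.1 units in R1 ES and 1973, 1086 and 2468 in the XEN cultures, the same order of cultures as Pth1r. Of the other probe sets of Gata6, one rose by 2.23 in log2 (limma adjusted p = 0.0137), and another, with a difference of 0.22, did not pass (0.802).

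The probe sets nearest to Dkk1 were 2 of Ptprm, a receptor phosphatase gene (0.07 and 0.14), and those of Itgb1bp1, an integrin-binding protein gene (0.09), Cdc42se2 (0.13) and the Polycomb gene Bmi1 (0.14). Each was highest in IM8A1-I and lowest in ES. Bmi1 measured 38.5 units in ES and 237, 155 and 174 in the XEN cultures. Of the 4 arrays 3 share a cell type, and likeness over so few points is a description only. The plot of centred profiles shows both groups.

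**Figure D4:**
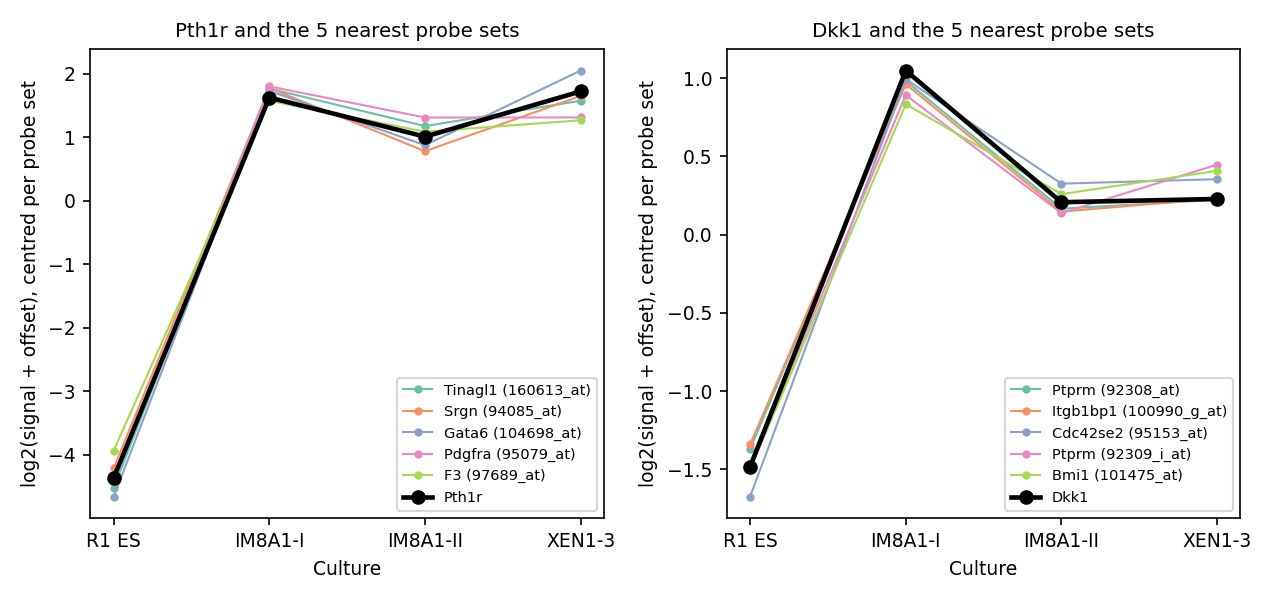
Log2(signal + 10.5 units) of Pth1r (left, black) and Dkk1 (right, black) and of the 5 probe sets with the nearest profile, each centred on its own mean over the 4 arrays. Both black lines are lowest in R1 ES. Pth1r dips in IM8A1-II, and Dkk1 peaks in IM8A1-I and is nearly level between IM8A1-II and XEN1-3.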

How the data were processed

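The authors deposited linear intensity values, already summarised to 12488 probe sets on each array. The software that did so is not given in the sources that were used. Their 2% trimmed means (150.088 to 150.095) show a common scaling, made exactly equal here by factors of 1.00. Chip type, chip lot and fluidics messages were read per the file headers of the run records. Then 10.5 units (25th percentile) were added and log2 taken, which understates the change of dim genes. All 76 values of 19 bacterial and yeast control probe sets lay under the background limit (40th percentile). Testing required 1 array at or above the limit and left 8587 probe sets. A fold against a group wholly under the limit is a lower bound, taken against the limit itself.

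Symbols came from the supplied platform annotation. Of 12488 probe sets 10833 had 1 symbol, 396 several, 1193 none and 66 were controls. By gene ID 10817 of the 10833 were found in the RefSeq table (GRCm38.p6). Each listed gene stands by 1 probe set, that of highest mean log2.

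XEN was compared with ES by limma 3.58.1 in R 4.3.3 (variance trend, 2 residual degrees of freedom, prior 3.76), two-sided, with Benjamini-Hochberg adjustment over all tested probe sets. The fit was also run on simulated data in which every array was drawn with the spread seen in XEN. That run does not test whether ES varies as XEN does. Members, lists and marker genes were chosen with earlier results of these data known. Named from each list were up to 8 genes past the threshold, smallest p first, and the 3 brightest others; Lrp5, Sfrp4, Axin2, Fos, Prkaca, Prkar1a and list genes under the limit were added after their values were seen. Nearest profiles were taken for members reaching the 60th percentile (84.7 units). Marker genes of fibroblasts, trophoblast and germ layers were also summed. The 11 alternatives covered the offset, filter, limit, scaling, variance trend, XEN lines and each XEN culture in turn. Figures used matplotlib 3.10.9.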

Additional observations from a re-analysis of the deposited data

How the results depend on the processing

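The direction of all tested members was the same under the 11 alternatives. Pth1r kept its call in each, with a log2 difference of 5.68 to 6.04 when 1 XEN culture was left out. For Dkk1 the log2 difference was 0.93 with the 50th percentile offset (limma adjusted p = 0.0845), 1.98 without the filter (0.0826), 1.04 with values raised to the limit (0.322), 1.93 with median scaling (0.0529), 1.94 with quantile normalization (0.0566) and 1.91 with each XEN line once (0.0503), and ranged from 1.70 to 2.12 with 1 culture left out. For Sfrp1 it was -0.86 with the 50th percentile offset (0.0471) and -1.0 when dim values were set to the limit (0.00253). It ranged from -2.18 to -1.69 with 1 culture left out. The count of higher probe sets fell from 479 to 241 with values raised to the limit, where dim values are equal, and ranged from 185 to 778 with 1 culture left out. The count of lower ones was 433 as reported, 537 with values raised to the limit and 181 to 711 with 1 culture left out. Without XEN1-3 the counts were the highest, 778 and 711. In the fit without XEN1-3 the XEN cultures are of 1 line, and the causes of these shifts were not tested.

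No paired analysis was possible because the ES group holds 1 culture and the labels pair no ES culture with a XEN culture. Signal near background limits Dkk1, Sfrp1 and Cer1, and 1 ES array of another chip lot limits every comparison with XEN.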
